A study of Arabidopsis thaliana with 12 samples.

Results

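The response of wild type Arabidopsis thaliana (Col-0) to chitooctaose was measured with 6 of the 12 arrays of the series, 3 of seedlings given chitooctaose at 1 uM and 3 of seedlings given water, both sampled at 30 minutes. The members are the 22746 probe sets that are not array controls, each compared between these 2 groups. The other 6 arrays hold a chitin receptor mutant, 3 with chitooctaose and 3 with water, and serve here for the spread estimate and as a second view. All plants were whole seedlings grown for 14 days in liquid MS medium under constant light at 23 °C, so every group shares that growth, and water is the control for adding the sugar. Each array is titled as a biological replicate. Whether an array held pooled plants, and the mutant allele, are not given in the sources used here.

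Chitooctaose is a soluble oligomer of N-acetylglucosamine, a fragment of the chitin in fungal cell walls. Plants sense such fragments at the cell surface with receptor kinases and receptor proteins that carry LysM domains, CERK1 among them in Arabidopsis. Binding is known to start calcium influx, an oxidative burst and MAP kinase activity within minutes, followed by a wave of early transcripts that code for transcription factors, calcium sensors, kinases and ubiquitin ligases.

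Intensities are linear signals with 1 value per probe set, and array medians lay between 177 and 201. The dimmest was wild type chitooctaose replicate 1, at 177, and its residual SD of 0.210 on the log2 scale was the highest of the series. A log2 difference below is mean log2(intensity + 16) with chitooctaose minus that with water, so it understates changes of dim genes, and an error after ± is its standard error unless given as SD. A probe set was called higher or lower at a limma adjusted p under 0.05 over all 22746. With 3 arrays a group, precision is limited by their number. In RNA of whole seedlings, fewer cells of a type and less RNA per cell cannot be told apart.

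The response was broad and mostly small. Of all probe sets 18.9% were called, 8.82% higher (2007) and 10.1% lower (2291), and 65.7% of all lay within 0.25 of 0 on the log2 scale. Increases reached further than decreases. The 99th percentile of the log2 difference was 2.02 and the 1st percentile was -0.88, with extremes of 5.59 and -2.59. The median over all probe sets was -0.04. Called increases had a median log2 difference of 0.64, and called decreases one of -0.44. At a minimum of 2-fold, 624 were higher (2.74%) and 130 lower (0.572%), and at 4-fold 236 were higher (1.04%) and 8 lower (0.0352%). In 98.0% of the calls the 3 chitooctaose arrays did not overlap the 3 water arrays. Over all probe sets the 3 chitooctaose arrays lay above the 3 water arrays in 13.1% and below them in 19.8%, so 3293 probe sets had groups that did not overlap but were not called. Without wild type water replicate 2 the count of lower calls was 1368.

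**Figure D1:**
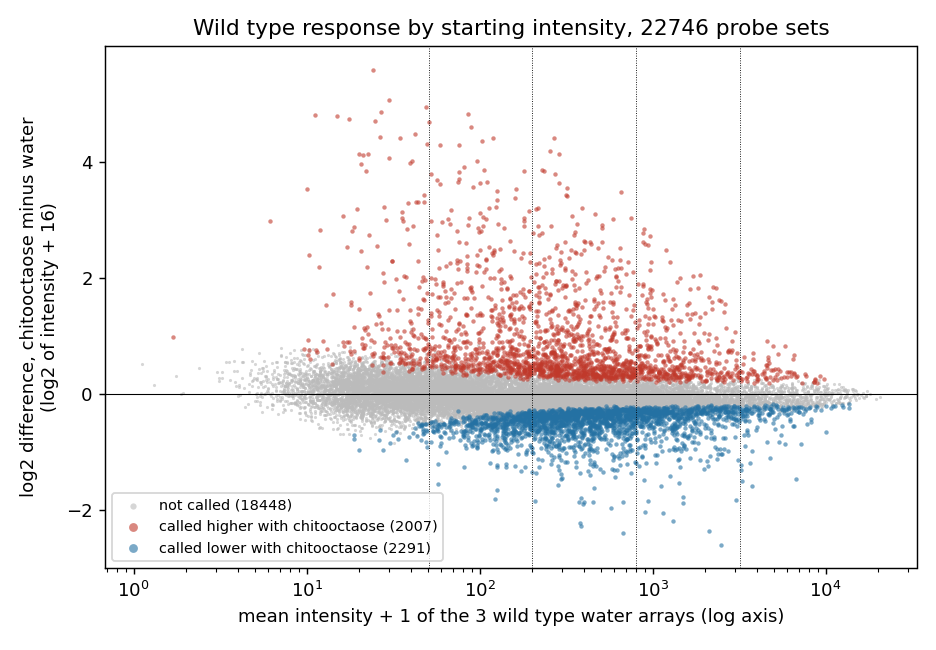
Each point is 1 of 22746 probe sets, with the mean intensity plus 1 of the 3 water arrays on a log x axis and the log2 difference, chitooctaose minus water, on the y axis. Red points are the 2007 called higher, blue the 2291 called lower and grey the rest, and dotted lines mark the edges of the starting classes at 50, 200, 800 and 3200. The tallest increases start at the dim end, up to 5.59, and thin out toward the bright end.

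Starting intensity, the mean of the 3 water arrays, split the response into different shapes. Dim probe sets that were called were mostly higher, and bright ones mostly lower. Among the 5310 probe sets under 50, 205 were called higher and 32 lower, so 86.5% of the calls were increases. That share was 55.2% from 50 to 200 (564 higher, 458 lower), 42.3% from 200 to 800 (797 and 1089), 39.1% from 800 to 3200 (368 and 572) and 34.3% at 3200 or more (73 and 140). The share of probe sets called either way ran from 4.46% in the dimmest class to 29.4% from 800 to 3200, and was 23.1% in the brightest.

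With classes by the water arrays, the size of the increases differed between classes too. Of the called increases 47.3% reached 2-fold when starting under 50, 39.9% from 50 to 200, 27.9% from 200 to 800 and 21.7% from 800 to 3200. None of the 73 increases in the brightest class reached 2-fold (limma, and 0 at an unadjusted p under 0.05), the highest being 0.92. Increases of 4-fold numbered 54, 90, 79 and 13 in the first 4 classes. Decreases of 2-fold numbered 1, 15, 71, 36 and 7 from the dimmest class to the brightest, or 3.13%, 3.28%, 6.52%, 6.29% and 5% of the called decreases.

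Parts of this pattern move with the measurement itself. On the log2(intensity + 16) scale a probe set starting at 50 can fall by 2.04 at most, and one starting at 200 by 3.75. The median residual SD was 0.275 under 50 and 0.088 at 3200 or more, and the smallest called increase was 0.39 and 0.19 in these classes. The water arrays also enter the difference. With classes set by the mutant water arrays, which do not, the share of increases among calls was 70.8% under 50 (167 higher, 69 lower) and 44.2% at 3200 or more (92 and 116). Classes by the mean of all 6 wild type arrays gave 52.9% under 50 (72 and 64) and 53.8% at 3200 or more (126 and 108), so the slope is lost when the chitooctaose arrays help to set the class. The sizes then run the other way over the first 4 classes, with 13.9%, 27.3%, 32.4% and 35.8% of the increases at 2-fold or more, and 24.6% (31 probe sets) in the brightest. Without wild type water replicates 1, 2 and 3 in turn the lower calls under 50 numbered 19, 15 and 17. Without water replicate 2 those of the 4 brighter classes numbered 255, 673, 357 and 68. Without water replicate 3 the class from 50 to 200 had 290 lower calls and the brightest 48 higher ones, and without water replicate 1 the brightest had 83 lower.

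**Figure D2:**
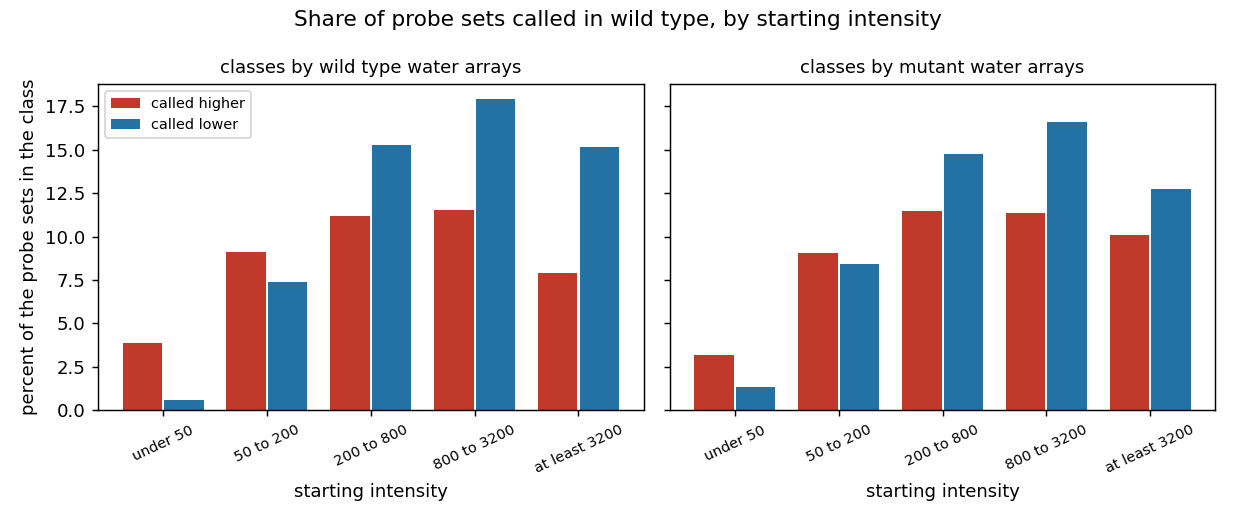
Bars give the percent of probe sets in each of 5 starting classes that were called higher (red) or lower (blue) with chitooctaose against water in wild type, with classes by the wild type water arrays on the left and by the mutant water arrays on the right. Under 50 the bars are 3.86% higher and 0.603% lower on the left, and 3.19% and 1.32% on the right.

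Most probe sets stayed in their class. Of those under 50 in water 88.7% were also under 50 with chitooctaose, and the shares for the 4 brighter classes were 86.5%, 85.5%, 85.5% and 90.2%. Moves across a whole class were all upward but 1. From under 50, 35 probe sets reached 200 to 800 and 12 reached 800 to 3200, and all 47 were called higher. From 50 to 200, 45 reached 800 to 3200, and from 200 to 800, 21 reached 3200 or more, again all called higher. In the other direction a single probe set went below 50 out of the 200 to 800 class.

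The named genes next in size after the 14 largest increases and 8 largest decreases show each class at the level of single arrays. Among the dimmest, AT1G35210 gave 496, 729 and 745 with chitooctaose, against 18.4, 24.3 and 21.8 with water. Its 3 treated arrays stood far above the water arrays, and replicate 1 was the lowest of them. The log2 difference was 4.14 ± 0.19 (adjusted p = 1.74e-11), and AT4G37290 (4.14 ± 0.20) and AT2G23270 (4.13 ± 0.25) were of like size. A decrease in this class runs into the floor of the scale. AT1G55660 stood at 10.3, 10.7 and 3.16 with chitooctaose and 40.9, 30.7 and 37.5 with water, a log2 difference of -1.13 ± 0.23 (adjusted p = 0.0018).

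In the class from 50 to 200, AT5G39670 stood at 1658, 2096 and 1696 with chitooctaose, against 99.1, 94.2 and 95.03 with water (log2 difference 4.02 ± 0.14, adjusted p = 6.07e-13). AR781 (3.84 ± 0.10) and AT4G28460 (3.79 ± 0.17) came next. AT4G10910 had intensities of 20.7, 30.1 and 19.9 with chitooctaose, and of 116, 136 and 115 with water (-1.81 ± 0.14, adjusted p = 1.92e-08). M17 stood at 11.9, 10.95 and 3.21 with chitooctaose, against 40.4, 65.0 and 64.5 with water (-1.56 ± 0.22). Genes were named by class only where the arrays of the groups did not overlap. The treated values of M17 lie in the dimmest range of the array.

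Starting between 200 and 800, AT4G29780 read 3580, 3945 and 3735 with chitooctaose and 280, 299 and 285 with water, and its groups were each within a narrow band (3.63 ± 0.08, adjusted p = 5.19e-15). AT4G27280 (3.49 ± 0.07) had 7206, 7805 and 7443 with chitooctaose, against 643, 672 and 643 with water. The next largest decreases of the class were AT4G02090 (-1.84 ± 0.17) and AT5G59080 (-1.79 ± 0.12). AT4G02090 had 47.3, 36.5 and 57.8 with chitooctaose, against 197, 200 and 231 with water.

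From 800 to 3200, AT5G35735 had 5391, 5791 and 5894 with chitooctaose and 1001, 965 and 868 with water (2.57 ± 0.08, adjusted p = 9.31e-14). Increases of 2.28 ± 0.08 for AT4G36500 and 2.14 ± 0.11 for AT5G19240 followed. SIS, named for being salt-induced and rich in serine, had 224, 251 and 277 with chitooctaose, against 941, 955 and 935 with water (-1.85 ± 0.10, adjusted p = 1.04e-10). It was also called lower in the mutant, by -0.91.

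In the brightest class the largest increase of a named gene belonged to EXO (EXORDIUM), a gene tied to brassinosteroid-dependent growth. It read 5611, 6624 and 6445 with chitooctaose, against 3762, 3693 and 3879 with water (0.72 ± 0.08, adjusted p = 4.24e-06). AT5G61590, annotated as DEWAX, a repressor of cuticular wax synthesis, read 1151, 1309 and 1276 with chitooctaose, against 3883, 3791 and 3640 with water (-1.59 ± 0.07, adjusted p = 8.85e-12). AT5G60680 fell by 1.32 out of the same class. Groups that did not overlap were a condition for naming these bright genes too.

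**Figure D3:**
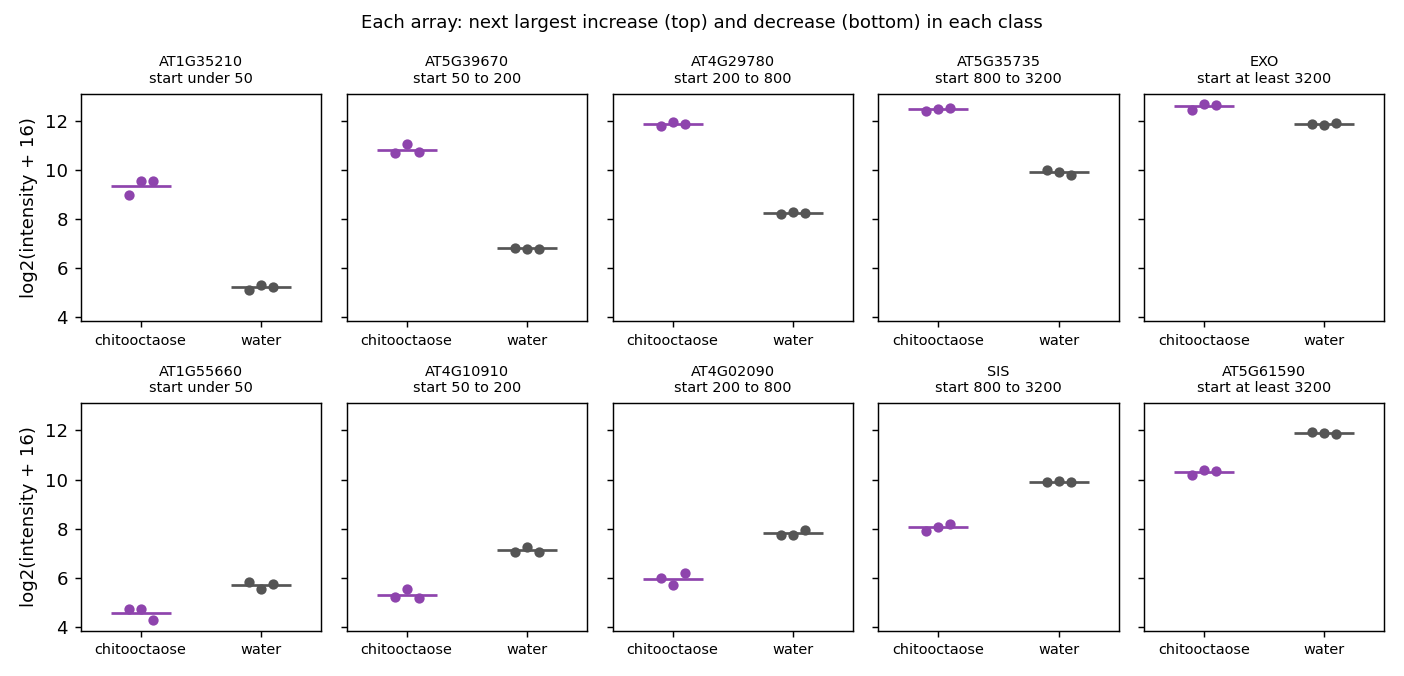
Points are single wild type arrays on a log2(intensity + 16) axis, chitooctaose left of water, and bars are group means. For each starting class the top row shows the next largest increase and the bottom row the next largest decrease. Genes were chosen among those whose groups do not overlap, and the increase shrinks from 4.14 for AT1G35210 to 0.72 for EXO.

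Sorted by size, the calls changed side. Below 0.5 on the log2 scale 741 were higher and 1351 lower, and from 0.5 to 1 there were 642 and 810. From 1 to 2 the order turned to 388 higher and 122 lower, from 2 to 3 it was 152 and 8, and at 3 or more 84 and 0 (limma, with 0 decreases of that size at an unadjusted p under 0.05). The small calls were the least steady. Of the increases below 0.5, 46.3% kept their call in each of the 6 fits that left out 1 wild type array, and of the decreases 32.4%. The shares were 82.1% and 82.4% from 0.5 to 1, and 99.7% and 100% from 1 to 2. The count of increases below 0.5 was 479 without chitooctaose replicate 2 and 462 without water replicate 3. That of decreases was 729 and 585 without water replicates 1 and 2. Beside these small differences, the 18 spike-in hybridisation controls had a median log2 difference of 0.19, with 17 of 18 above 0, and their part in the small calls was not tested.

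**Figure D4:**
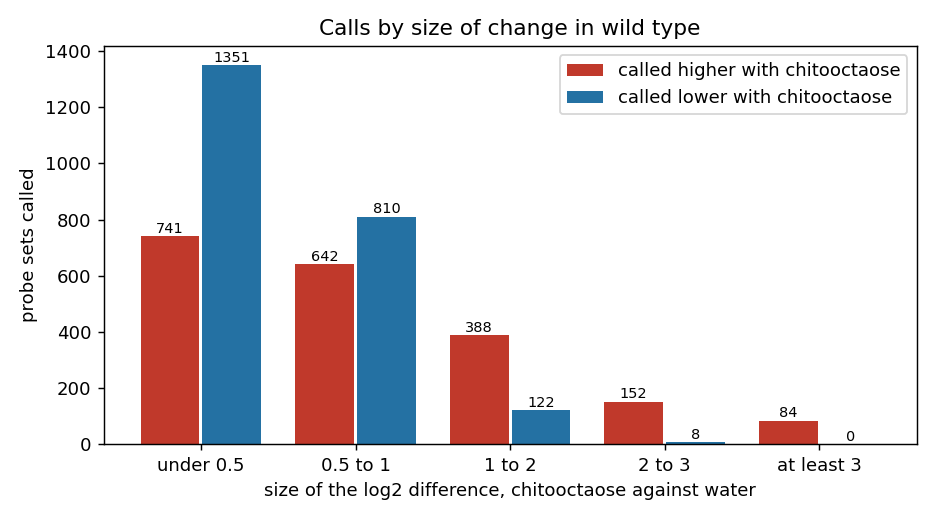
Bars count the probe sets called higher (red) and lower (blue) with chitooctaose against water, in 5 classes of the absolute log2 difference. Lower calls outnumber higher ones below 1 (1351 against 741 and 810 against 642), and higher ones outnumber lower ones above it.

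The largest increases started dim and ended bright. The 84 probe sets at 3 or more had a median intensity of 1269 with chitooctaose and 75.2 with water, whereas the 741 increases below 0.5 had medians of 659 with chitooctaose and 502 with water. Decreases from 1 to 2 had medians of 195 with chitooctaose and 485 with water. In the mutant, the median log2 difference of these wild type size classes lay within 0.10 of 0, except for the 8 decreases from 2 to 3 with -0.40. The mutant comparison as a whole called 1.49% of probe sets, and the responses of the genotypes differed in 11.3%. Of those 8, 4 were also called lower in the mutant and 2 higher.

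Genes with the lowest adjusted p in each size class were named as well. From 0.5 to 1, AT2G46600 read 4988, 5551 and 5783 with chitooctaose, against 2828, 2863 and 2902 with water (0.92 ± 0.07), and AT3G19680 read 1319, 1316 and 1329 with chitooctaose, against 2609, 2666 and 2464 with water (-0.96 ± 0.06). Their adjusted p were 1.92e-08 and 2.38e-09. From 1 to 2, pEARLI4 had 3256, 3274 and 3413 with chitooctaose, against 880, 846 and 895 with water (1.90 ± 0.07). In the class from 2 to 3, AT2G25735 had 3747, 3778 and 4208 with chitooctaose, against 507, 504 and 512 with water (2.91 ± 0.07).

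The arrays shared the response. In each of 6 fits 1 array was left out, 2-fold members were taken from that fit, and the omitted array was then set against the other group. The 3 arrays of that other group were also in the fit, so agreement in direction is partly built in. Chitooctaose arrays 1, 2 and 3 had a median of 1.57, 1.81 and 1.76 over the increased members and of -1.39, -1.09 and -1.06 over the decreased ones. Replicate 1 had the lowest median for both, but each array had its own members, so these medians cover unlike sets. The increased members numbered 656, 616 and 634, and the decreased ones 115, 160 and 160. Over all probe sets the median of replicate 1 was -0.10, against 0.02 and -0.03 for replicates 2 and 3. From 99.4% to 100% of the members moved in the direction of that fit in each of the 6 arrays, water arrays included.

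Gene families were formed by symbol, 43 families with 668 measured genes, each gene by its brightest probe set. Of 13350 named genes 11750 were named by their matched locus only. The other 1600 are counted here as having a symbol, although some of them are locus codes with no matched locus. A family can therefore lack many of its members, and its counts cover only the genes matched. Of the 668, 10.6% were called higher and 12.3% lower, close to the shares of all probe sets, 8.82% and 10.1%. Both directions occurred in 23 families, 8 had increases with no decrease, 9 had decreases with no increase and 3 had no call. The split below follows the known role of each family.

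At the membrane, 3 of 8 glutamate receptor-like channel genes were higher and none lower (median log2 difference 0.36, against -0.04 over all probe sets). These cation channels are linked to calcium entry. GLR2.8 had 132, 134 and 142 with chitooctaose, against 50.9, 51.7 and 46.0 with water (1.22 ± 0.13, adjusted p = 1.37e-06). GLR2.9 (0.96 ± 0.24) and GLR2.7 (0.72 ± 0.15) lie beside it in the genome, as the consecutive loci AT2G29100, AT2G29110 and AT2G29120. All 3 were dim, with water means of 20.0 to 58.6.

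Of 16 genes for receptor kinases and receptor-like cytoplasmic kinases, 3 were higher and none lower, each by more than 2-fold. BIK1, a kinase that sits below several pattern receptors, had 1822, 2097 and 2239 with chitooctaose, against 860, 851 and 799 with water. PTI1-4, a cytoplasmic kinase gene, rose by 1.10 ± 0.08 and SD1-29, an S-domain receptor kinase gene also known as LORE, by 1.04 ± 0.09. Without chitooctaose replicate 1, 5 of the 16 were called higher. RALF peptide genes split, with RALFL33 at 0.59 ± 0.08 and RALFL27 at -0.73 ± 0.16 among 2 higher and 2 lower of 11. Without water replicate 3, 1 of them was higher.

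Of 8 genes for calmodulin-like calcium sensors 5 were higher, none was lower and 3 were not called, CML43 (-0.14) and AT1G76640 (-0.11) among these 3. CML42 had 2279, 2978 and 3022 with chitooctaose, against 624, 558 and 626 with water, and CML23 had 643, 783 and 755, against 224, 219 and 194 with water. The groups of both were well apart, at log2 differences of 2.16 ± 0.12 and 1.70 ± 0.11. Among 15 genes of the calmodulin-binding IQD family, 1 was higher and 2 lower, and no such call held in every fit without an array.

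Among transcription factors, 3 of the 7 WRKY genes matched by symbol were higher and none lower. WRKY22, a factor of early pattern-triggered responses, had 2267, 2125 and 1803 with chitooctaose, against 462, 521 and 480 with water. Replicate 3 was its lowest treated array, still far above the water arrays. Of 23 bZIP genes 2 were higher and 4 lower. BZIP60 and BZIP28, which code for membrane-tethered factors of the unfolded protein response, were the 2 higher ones, at 1.64 ± 0.07 and 0.48 on the log2 scale. BZIP60 had 3829, 4163 and 4292 with chitooctaose, against 1337, 1309 and 1260 with water. bZIP43 had the largest decrease, -0.89 ± 0.22, and without chitooctaose replicate 2 or water replicate 2 the family's lower calls numbered 2. Of 18 bHLH genes PYE, a regulator of iron deficiency responses, was higher (0.57 ± 0.08) and 4 were lower, NAI1, a regulator of ER bodies, the most (-0.78 ± 0.14). In the MADS-box family of 42 largely reproductive regulators, 1 gene was called lower, AGL21, and 5 of the 6 leave-one-out fits lost that call. This family was dim, with a median water intensity of 36.2, and of all probe sets starting under 50 only 4.46% were called.

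Ubiquitin ligases attach ubiquitin to proteins and so mark many of them for breakdown. Of 9 plant U-box ligase genes 5 were higher and none lower. PUB22, PUB23 and PUB24, related ligases known to damp pattern-triggered immunity, had log2 differences of 2.22 ± 0.10, 2.92 ± 0.09 and 2.79 ± 0.10. PUB24 started dimmest, at 94.0, 100 and 98.4 with water, and had 721, 853 and 741 with chitooctaose. The RING ligase genes RING1 and ATL8 went apart. RING1 had 782, 945 and 923 with chitooctaose, against 228, 259 and 224 with water (1.83 ± 0.10), and ATL8 had 73.8, 103 and 79.0 with chitooctaose, against 246, 307 and 291 with water (-1.56 ± 0.12). Of 10 RING ligase genes matched by symbol, XERICO (given below) not among them, 2 were higher and 2 lower. Without chitooctaose replicate 2, water replicate 1 or water replicate 3, 1 was higher, and without chitooctaose replicate 2, 4 were lower. Of 12 ubiquitin-conjugating enzymes 0 were called by limma, with 1 higher and 1 lower at an unadjusted p under 0.05. Without chitooctaose replicate 3, 1 was called in each direction. Of 12 ubiquitin-specific proteases 1 was lower, and without chitooctaose replicates 2 and 3 there were 2 and 3.

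Genes of the cell wall went both ways. Expansins, which loosen walls, had 2 of 18 higher and 6 lower. Both of the higher ones were of the expansin-like A type, EXLA3 (1.03 ± 0.15) and EXLA1 (0.60 ± 0.10), and the 6 lower were of the alpha type, EXPA9 by -0.69 and EXPA8 by -0.62 among them. EXLA3 had 190, 160 and 172 with chitooctaose, against 68.2, 83.0 and 80.3 with water. Of 10 xyloglucan endotransglucosylase genes, whose products cut and rejoin xyloglucan, XTH18 and XTH19 were higher (1.57 ± 0.08 and 0.68 ± 0.08) and XTH26 (-0.90 ± 0.12) and EXGT-A3 (-0.30) lower. Without water replicate 2, 1 of them was lower. Of 15 GH9 endoglucanases 4 were lower and none higher. Without water replicates 1 or 2, 2 were lower, and without chitooctaose replicate 1, 1 was higher. CSLC04, a gene of xyloglucan backbone synthesis, had 2556, 2819 and 2683 with chitooctaose, against 1252, 1261 and 1107 with water (1.15 ± 0.09). ATPMEPCRB, a pectin methylesterase gene, had 1998, 1986 and 1951 with chitooctaose, against 922, 988 and 860 with water (1.09 ± 0.07).

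Membrane and trafficking families held a few large increases. Tetraspanins are proteins with membrane-spanning helices that organise membrane domains. TET9 had 558, 639 and 656 with chitooctaose, against 65.7, 75.4 and 59.2 with water (2.94 ± 0.12). TET8, a marker of plant extracellular vesicles, had 7499, 8090 and 7641 with chitooctaose, against 2749, 2775 and 2381 with water (1.55 ± 0.08). Of 15 members 5 were higher and 3 lower. Without chitooctaose replicate 1, water replicate 2 or water replicate 3, 3 were higher, and without water replicates 2 or 3, 1 was lower. VPS2.1 (0.99 ± 0.08) and VPS60.1 (0.78 ± 0.11), of the ESCRT sorting machinery, were the higher ones of 12 VPS genes, with VPS9B at -0.39, a call lost without water replicate 2. SEC1B, a partner of secretory SNARE proteins, had 113, 193 and 215 with chitooctaose, against 91.1, 78.2 and 79.2 with water (0.90 ± 0.17). Its treated arrays spread widely, and replicate 1 is close to the water arrays.

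Secreted proteins and metabolism gave mixed counts. Of 13 defensin and defensin-like genes none was higher and 3 were lower. PDF2.5 had 239, 345 and 335 with chitooctaose, against 565, 565 and 577 with water (-0.88 ± 0.11). SBT3.3, a subtilase gene linked to immune priming, had 94.97, 109 and 137 with chitooctaose, against 30.0, 46.6 and 40.9 with water (1.23 ± 0.15). Of 49 UDP-glycosyltransferase genes matched by symbol, IAGLU (given below) not among them, 6 were higher and 11 lower. Without chitooctaose replicate 2, 3 were higher. UGT73B5 (0.83 ± 0.12) and UGT76B1 (-0.81 ± 0.10), whose product glycosylates immune signals, stood near the ends of the range. Of 14 glutathione S-transferases GSTU18 was higher (0.56) and 3 were lower, GSTU25 the most (-0.80 ± 0.11). Of 21 family 1 beta-glucosidases 0 were called by limma, with 2 higher and 1 lower at an unadjusted p under 0.05, and 2 were called higher without chitooctaose replicate 1.

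All calls in the hormone and autophagy families were decreases, beside 8.82% higher and 10.1% lower over all probe sets. Of 7 Aux/IAA repressor genes IAA29 was lower (-0.76 ± 0.14), and of 5 GH3 genes, whose products conjugate hormones to amino acids, GH3.3 and GH3.17 were lower (-0.60 ± 0.09 and -0.52). None of either family was called higher by limma, nor at an unadjusted p under 0.05. Of 6 two-component response regulators, also dim with a median water intensity of 34.5, 0 were called, and 0 had an unadjusted p under 0.05. Of 9 ATG8 autophagy genes 3 were lower and none higher, with 4 lower at an unadjusted p under 0.05, and without chitooctaose replicate 3 it was 5.

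**Figure D5:**
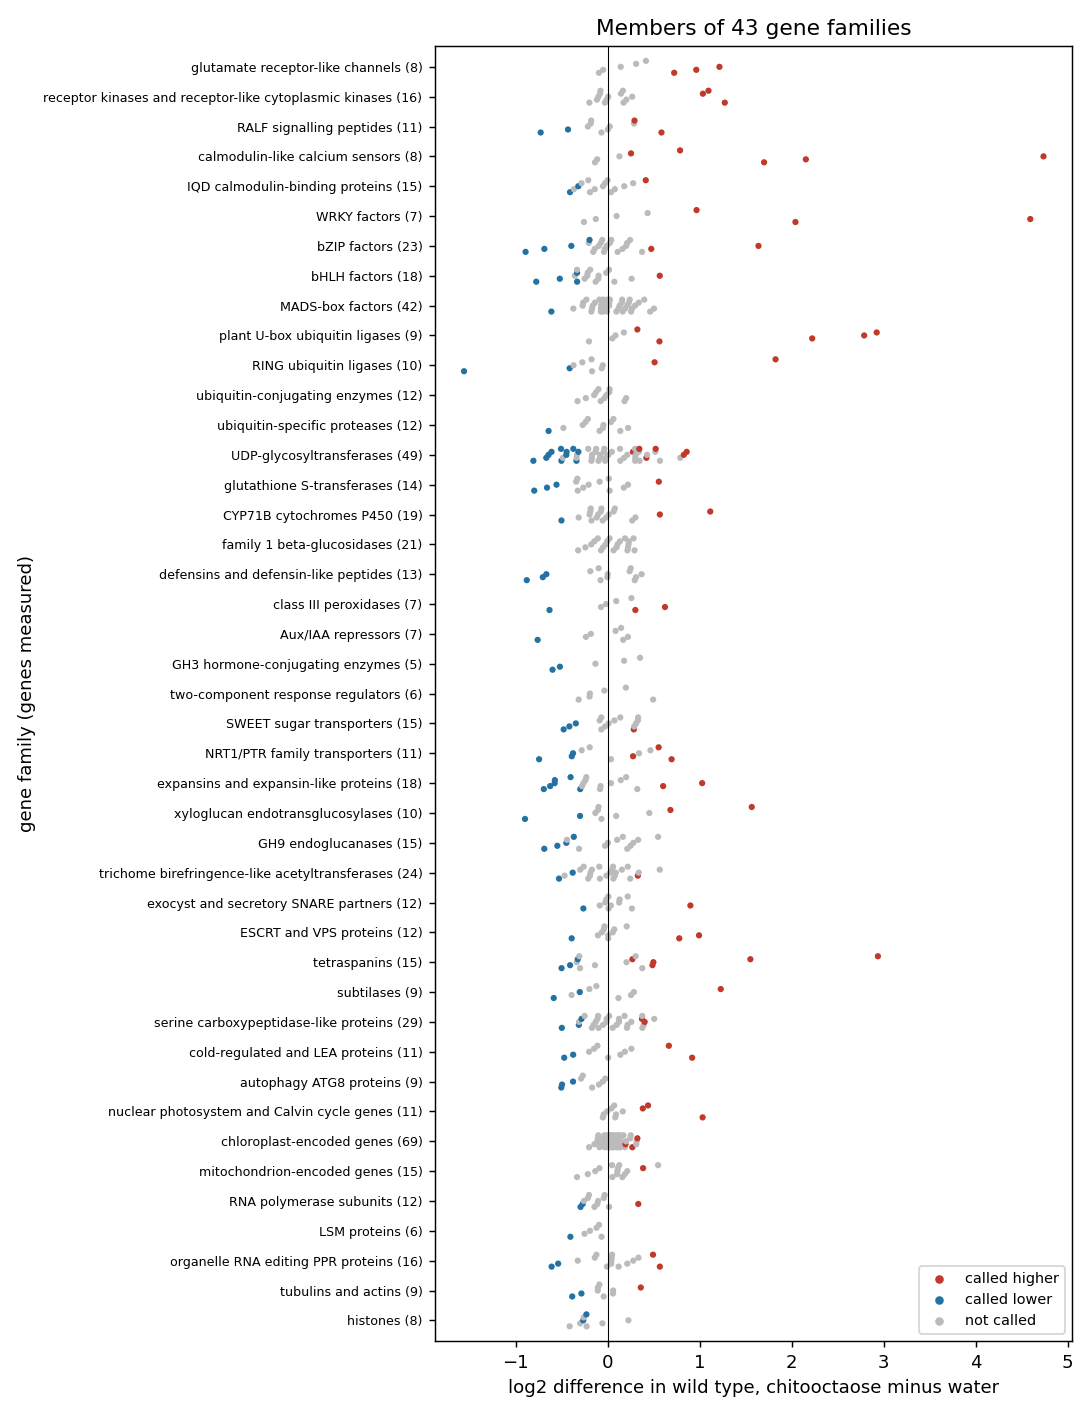
Each point is a gene of 1 of 43 families, placed by its log2 difference, chitooctaose minus water in wild type, with red called higher, blue called lower and grey not called. The number of measured genes matched to the family follows the name, and points are spread vertically for visibility. Calmodulin-like, WRKY, U-box and tetraspanin families hold the points above 2, and ATL8 at -1.56 is the lowest point.

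Of the 1600 genes counted as having a symbol, 41 were higher and 11 lower by 2-fold or more, family members included. The 41 take in AT5G05300 (4.47), AT3G57450 (1.67) and AT1G32920 (1.80), which are named by a locus code only. Over all probe sets 2.74% were higher and 0.572% lower by that much. All 52 kept their call in each fit without an array, as did 99.7% of all increases and 100% of all decreases from 1 to 2. DLAH, a DAD1-like acylhydrolase gene, had 972, 1225 and 1154 with chitooctaose, against 74.6, 69.7 and 78.2 with water (3.65 ± 0.11). OPCL1 codes for a CoA ligase of jasmonate synthesis, and had 737, 1381 and 1247 with chitooctaose, against 399, 358 and 303 with water (1.58 ± 0.17). CCR2, a cinnamoyl-CoA reductase gene of phenolic synthesis, had 190, 212 and 245 with chitooctaose, against 55.2, 65.3 and 65.4 with water (1.57 ± 0.14). Groups that did not overlap were a condition for this list. For OPCL1 chitooctaose replicate 1 was lower than replicates 2 and 3.

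Other increases in this class were ZCF37 (3.16 ± 0.13), B120 (2.29 ± 0.16) and ACA.l (2.08 ± 0.09). They also took in SUFE2, a plastid sulfur transfer factor gene (1.67 ± 0.08), HEMA2, a glutamyl-tRNA reductase gene of tetrapyrrole synthesis (1.62 ± 0.08), and MMP, a matrix metalloproteinase gene (1.37 ± 0.15). HEMA2 had 1193, 1412 and 1239 with chitooctaose, against 402, 401 and 416 with water.

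The 11 decreases take in SIS, M17 and ATL8, given above, WAG2 (-1.86) and P1R3 (-1.17), and the 6 that follow. SIM (SIAMESE), a cyclin-dependent kinase inhibitor gene of trichome endoreduplication, had 153, 219 and 211 with chitooctaose, against 511, 520 and 512 with water (-1.35 ± 0.14). XERICO, a RING gene that raises abscisic acid levels, had 244, 224 and 256 with chitooctaose, against 615, 634 and 611 with water (-1.31 ± 0.08). The auxin-responsive homeobox gene HAT2 had 437, 431 and 337 with chitooctaose, against 831, 934 and 824 with water (-1.08 ± 0.10). IAGLU, an indole-acetate glucosyltransferase gene, fell by 1.01, and sks15 and GAT1_2.1, a glutamine amidotransferase gene, fell by 1.08 and by 1.07. That the 3 treated arrays lay below the 3 water arrays was a condition for this list.

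Some of the increases lie side by side in the genome. Among 12218 measured protein-coding genes in genome order there were 5809 pairs with no other protein-coding gene between them. In 16 of these pairs both genes were higher by 2-fold or more. Both were lower in 2 pairs, and no pair joined a 2-fold increase to a 2-fold decrease. The 16 pairs hold 30 of the 319 genes that rose by 2-fold or more among the 12218. Whether any of these pair counts departs from what such shares would give was not tested. BIK1 (1.27) adjoins AT2G39650 (3.20), OPCL1 (1.58) adjoins AT1G20520 (2.29), and BZIP60 (1.64) lies between AT1G42980 (1.25) and AT1G43000 (2.56). SD1-29 (1.04) ends a run of AT1G61360 (2.34) and AT1G61370 (1.14). AT5G52750 (3.07) and AT5G52760 (4.31), and AT2G32020 (2.02) and AT2G32030 (4.41), hold the largest differences. The lower pairs are M17 with AT2G41250 (-1.56 and -1.36) and AT3G52060 with AT3G52070 (-1.24 and -1.07). Probe sets of adjacent related genes can share sequence, and cross-hybridisation was not tested.

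Some leaf and some root markers were bright in these whole seedlings, while LHCB4.3 (363 with water) and EXPA7 (196 with water) were far dimmer. The antenna protein gene LHCB4.1 stood at 15260 ± 1180 with chitooctaose and 15290 ± 625 with water, and the root gene PYK10 at 9531 ± 625 with chitooctaose and 9846 ± 251 with water (SD, n = 3 each). Of 11 green-tissue genes 3 were higher and none lower, LHCB4.3 (1.03 ± 0.11), SBPASE (0.44 ± 0.07) and PRK (0.38 ± 0.09). Of 5 root genes 4 were lower, AT1G52060 by -0.91, AT1G52070 by -0.94, EXPA7 by -0.57 and EXPA18 by -0.58, while PYK10 had -0.05. Over all probe sets 8.82% were called higher and 10.1% lower. AT1G52060 and AT1G52070 are both jacalin lectin genes, and EXPA7 and EXPA18 both expansin genes, so the 4 decreases are not separate kinds of marker. Of 2 guard cell genes AT1G22690 was higher (0.59 ± 0.07) and FMA was not called. The pollen genes AT5G45880 and ANX1 were dim, at 34.5 and 19.7 with chitooctaose and 35.5 and 16.3 with water. EXPA7 and EXPA18 are also counted among the expansins, and the part of a shift between root and shoot RNA in any decrease above was not tested.

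Annotation limits what can be named. Of the 2-fold increases 327 had 1 named gene and 285 had none, and of the 2-fold decreases 54 and 73. Probe sets with 1 named gene were called higher in 8.04% and lower in 9.15%, and those with none in 10.1% and 11.5%. Of 152 genes with several probe sets, 122 had none called, 15 had all called one way, 14 had some called and 1 had calls in both directions. The transcript of CERK1 was not analysed here, since no probe set carries its name.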

How the data were processed

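The authors deposited 1 linear intensity per probe set and array, with summarisation, background correction and scaling not given in the sources used here. Per the labels' protocols, 8 ug of total RNA gave the labelled cRNA. The label "um" is read as micromolar. From 22810 probe sets the 64 controls were left out. A model with 1 mean per group was fitted to log2(intensity + 16) of all 12 arrays with limma 3.58.1 (eBayes with a mean-variance trend, 8 residual degrees of freedom), two-sided, with Benjamini-Hochberg adjustment over 22746. The test was checked on simulated data. Figures used Python 3.11.15 and matplotlib 3.10.9.

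Starting classes and size classes were cut at round values. Genes were named by rule, after leaving out the 14 largest increases and 8 largest decreases: per starting class 3 increases and 2 decreases, per size class from 0.5 the 2 lowest adjusted p each way, and per family up to 3 increases and 2 decreases. Genes with a symbol and a 2-fold change, and the 43 families, which replace lists of gene descriptions that the annotation does not hold, were added after the annotation was seen. For starting classes, size classes and 2-fold genes with a symbol, only called genes whose groups did not overlap were eligible. Members and lists were chosen with earlier results of these data known. Names come from the platform annotation (13513 probe sets with 1 gene, 13436 matched to TAIR10.1). No sequence was used here. Alternatives were other scalings, pseudocounts and filters, a replicate block, and leaving out each array. That the arrays came from separate cultures rests on their titles.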

Additional observations from a re-analysis of the deposited data

Results flagged for a closer look

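Of the 10 genes chosen as the next largest increase or decrease of a starting class in wild type, 9 had a response that differed between the genotypes by the interaction term of the same limma fit, given as the mutant log2 difference minus that of wild type. That choice favours large differences, and over all probe sets 11.3% were called. For the tenth, AT1G55660, the value was 0.95 (adjusted p = 0.077). Among those that rose in wild type the values were -4.22 for AT1G35210, -4.09 for AT5G39670, -3.78 for AT4G29780, -2.68 for AT5G35735 and -1.32 for EXO. Among those that fell they were 1.69 for AT4G10910, 2.23 for AT4G02090, 0.94 for SIS and 1.61 for AT5G61590. EXO moved in opposite directions, with -0.60 in the mutant (adjusted p = 0.0007) and 0.72 in wild type. SIS fell in both, by 0.91 in the mutant and by 1.85 in wild type.

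Outside the tested probe sets, the 18 spike-in hybridisation controls had a median log2 difference of 0.194 in wild type, chitooctaose minus water, with 17 of 18 above 0, 5 called higher and none lower. The medians of chitooctaose arrays 1, 2 and 3 stood 0.19, 0.14 and 0.26 above the mean of the water arrays. In the mutant the median was -0.11. Their part in the small differences of the other probe sets was not tested.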

How the results depend on the processing

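Of the 4 counts of calls, those of higher probe sets and of 2-fold increases stayed within 1.5 times of 2007 and 624 under every alternative run. The count of lower probe sets was 3549 under quantile normalization, and that of 2-fold decreases was 197 with a pseudocount of 1 and 76 with a pseudocount of 64. Leaving out single arrays gave 1630 to 2259 higher, 1368 to 2497 lower, 616 to 656 higher by 2-fold and 115 to 160 lower by 2-fold. Increases were 46.7% of the calls, 38.5% under quantile normalization, 49.9% under median centring and 42.4% to 56.2% without single arrays. No scaling moved the median of all probe sets by over 0.1. The cause of these moves was not tested. Same-numbered arrays of the 2 groups had deviations that correlated with r of 0.118, 0.032 and 0.134, and differently numbered arrays with r from -0.198 to 0.073. The titles give a replicate number but no pairing. It was not taken as a pairing in the main fit, and whether it marks one was not tested. As a replicate block it gave 2092 higher and 2396 lower. Of 193 named probe sets 156 kept their call in each of the 14 alternatives. The planned search for promoter motifs was not run, as no sequence was used here. Signal over background limits decreases of dim probe sets.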
